A study of Paralichthys olivaceus with 6 samples.

Results

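GABA and glycine are the main inhibitory transmitters of the vertebrate nervous system, and glutamate is the main excitatory one. A transmitter is loaded into vesicles by a vesicular transporter, acts on receptors at the surface of the receiving cell, and is cleared by transporters of the plasma membrane. Genes of these systems are also expressed outside the brain, and in skin they may be carried by nerve endings, glia, pigment cells or keratinocytes.

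The data describe 5 genes of GABA, glycine and glutamate signalling in the skin of the Japanese flounder (Paralichthys olivaceus), of 22498 genes in the count table. They are SLC32A1 (GS_000336), SLC6A13 (GS_006243), GLRK (GS_006975), GRM3 (GS_006200) and CAMK1G (GS_007481). CAMK1G is named as a calcium/calmodulin-dependent kinase, not as a transporter or receptor, and its link to these transmitters was not tested. The genes were picked by name with their change between albino and normal skin already known, and the set was assembled to include the strongest increases among well-counted genes. The difference between the groups, and whether a gene passed the threshold applied to all genes, are therefore given as a description and support nothing on their own. All 5 genes were among the 16260 that passed the filter on low counts. The gene names come from matches to proteins of other species in the study's tables, so the roles given here are those known from mammals, birds or frogs.

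RNA-seq was carried out on skin of the ocular side, the upward and normally pigmented side of the flatfish, from 3 albino fish (PO_alb1, PO_alb2 and PO_alb3) and 3 normal fish (PO_con1, PO_con2 and PO_con3). All fish were 5 months old and came from 1 full-sib family, so the groups share their parents, age and tissue and differ in pigmentation. Each library came from 1 fish, and the labels gave neither a genotype nor a cause of the albino phenotype. The skin was not sorted into cell types, so more cells of a type and more RNA per cell cannot be told apart.

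Library depth was similar, with 17905084 to 18631484 counts in albino fish and 18232951 to 20025047 counts in normal fish. Albino skin held little of the melanophore transcripts, the 6 markers summing to 70 to 140.7 normalized counts against 1119 to 1518 in normal skin. TYR, which encodes the rate-limiting enzyme of melanin synthesis, had 0 counts in PO_alb1. The sum of 3 muscle markers was 33120 to 47230 in albino and 12110 to 24600 in normal skin, and that of 2 keratin genes of the epidermis was 8355 to 13760 in albino and 23540 to 40120 in normal skin. All these markers were in the study's table of genes changed between these libraries, so the gap between the groups in their sums follows from that choice. PO_con3 stood apart from the other normal libraries, with the lowest muscle sum and the highest keratin sum. A normalized count is the read count divided by the library's relative effective size, as estimated by edgeR's trimmed mean of M-values (TMM). The effective size is the library's total times a TMM factor. The factors were 1.05, 1.05 and 0.791 in PO_alb1, PO_alb2 and PO_alb3. In PO_con1, PO_con2 and PO_con3 they were 0.879, 1.03 and 1.27, so effective sizes differed more than totals.

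SLC32A1 encodes the vesicular inhibitory amino acid transporter, which loads GABA and glycine into synaptic vesicles. PO_alb1, PO_alb2 and PO_alb3 had 2132, 1717 and 2147 normalized counts of it, against 256, 309 and 282 in PO_con1, PO_con2 and PO_con3. The lowest albino fish stood far above the highest normal fish, and after TMM scaling fish of 1 group were close to each other. The means were 1999 ± 244 in albino and 283 ± 26.4 in normal skin (SD, n = 3 each), a log2 fold change of 2.82 (SE 0.17) or 7.07-fold. Leaving out any 1 fish kept the log2 fold change between 2.74 and 2.92.

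SLC6A13 encodes GAT2, a GABA transporter of the plasma membrane that in mammals is found mainly outside synapses. Its normalized counts were 81.8, 36.4 and 22.2 in PO_alb1, PO_alb2 and PO_alb3, against 144, 225 and 273 in PO_con1, PO_con2 and PO_con3. Every albino fish lay below every normal fish, but fish within each group differed widely. The means were 46.8 ± 31.1 in albino and 214 ± 65.6 in normal skin (SD, n = 3 each), with a log2 fold change of -2.17 (SE 0.44). This gene did not pass the threshold of edgeR's quasi-likelihood test used throughout, a Benjamini-Hochberg adjusted p of 0.05 over all genes tested. It passed when PO_alb1, the albino fish with the highest level, was left out, with a log2 fold change of -2.84. Another gene of the table, GS_014376, carries the same name. How alike their sequences are was not tested, and where they are alike the level of each is uncertain.

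GLRK is named after the kainate-binding proteins of frogs and birds, which belong to the family of ionotropic glutamate receptors. Its normalized counts were 3993, 2742 and 4404 in PO_alb1, PO_alb2 and PO_alb3, against 971, 1056 and 626 in PO_con1, PO_con2 and PO_con3. PO_alb2 was the lowest albino fish and PO_con2 the highest normal fish, and the groups did not overlap. The means were 3713 ± 866 in albino and 884 ± 228 in normal skin (SD, n = 3 each), and the log2 fold change was 2.07 (SE 0.27). Without PO_con2 the log2 fold change was 2.21 but the gene no longer passed the threshold.

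GRM3 encodes a metabotropic glutamate receptor that couples to inhibitory G proteins and lowers cyclic AMP. It was thinly counted, with 40, 45 and 39 reads in PO_alb1, PO_alb2 and PO_alb3, against 23, 11 and 16 reads in PO_con1, PO_con2 and PO_con3. The albino fish had close counts, all above those of the normal fish. The normalized means were 44.7 ± 5.68 in albino and 16.1 ± 7.32 in normal skin (SD, n = 3 each), for which the fit gave a log2 fold change of 1.48 (SE 0.34). The gene did not pass the threshold, and the value lay between 1.26 and 1.87 when any 1 fish was left out. The coefficient of variation between albino fish was 12.7%, and counting error alone gives 15.7% at this depth, while between normal fish it was 45.5%, with 24.7% from counting alone.

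CAMK1G encodes a calcium/calmodulin-dependent protein kinase of the CaMKI family, which in mammals is prominent in brain and acts downstream of calcium entry. Its normalized counts were 1279, 1041 and 625 in PO_alb1, PO_alb2 and PO_alb3, against 117, 93.1 and 62.1 in PO_con1, PO_con2 and PO_con3. PO_alb3 had the lowest level among albino fish and PO_con3 the lowest among normal fish, and all albino fish were several times above all normal fish. The means were 982 ± 331 in albino and 90.7 ± 27.5 in normal skin (SD, n = 3 each), a log2 fold change of 3.44 (SE 0.33) or 10.9-fold. Omitting any 1 fish kept it between 3.21 and 3.68.

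**Figure D1:**
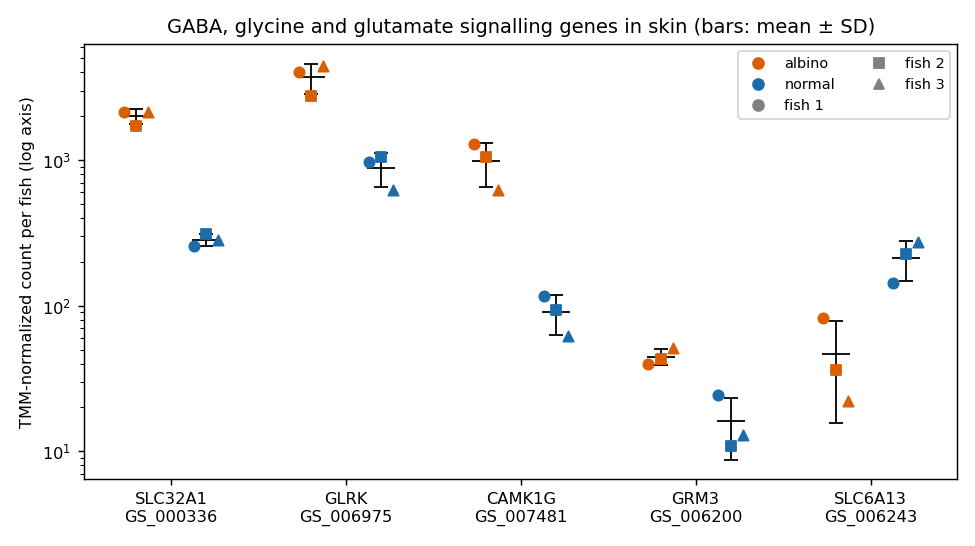
Normalized count (TMM-scaled reads, log axis) of the 5 signalling genes in each of 3 albino and 3 normal fish, with points for fish and bars for mean ± SD. The albino points of SLC32A1 (1717 to 2147), GLRK (2742 to 4404), GRM3 (39.9 to 51.0) and CAMK1G (625 to 1279) lie above all normal points, and those of SLC6A13 (22.2 to 81.8) lie below them.

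Of the 5 genes, 3 passed the threshold as higher in albino skin, namely SLC32A1, GLRK and CAMK1G, against 0.129% of all genes tested that passed as higher and 1.04% that passed in either direction. By edgeR 0 of the 5 passed as lower, against 0.91% of all genes tested. At an unadjusted p under 0.05 edgeR gave 4 higher and 1 lower, against 2.7% and 5.16% of all genes tested. DESeq2 at its adjusted threshold also gave 4 higher and 1 lower, against 0.554% and 1.69%, and limma on log2(RPKM + 1) gave 3 higher and 0 lower, against 0.0431% and 0.547%. The groups did not overlap for all 5 genes, a pattern held by 13.2% of all genes tested. Albino fish were the higher group for 4 of them, against 5.73% of all genes tested, and the lower group for 1, against 7.46%. The median log2 fold change was 2.07 for the 5 genes and 0.01 for all genes tested. Nothing can be read from these shares, because the genes were chosen for this difference.

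The rule named the strongest well-counted increases, and among the 10757 genes with a mean normalized count of at least 100 the fold change of CAMK1G ranked 1 from the highest, that of SLC32A1 ranked 2 and that of GLRK ranked 9. SLC6A13 ranked 40 from the lowest in the same set. GRM3, with a mean of 30.4 over the 6 libraries, was not in this set and ranked 45 from the highest among all 16260 genes.

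**Figure D2:**
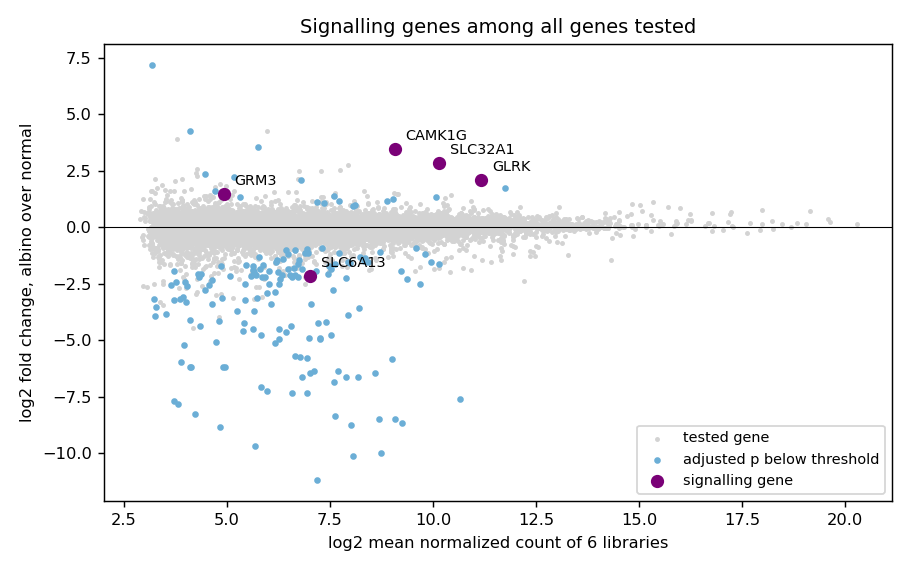
Log2 fold change (albino over normal skin) against log2 mean normalized count of the 6 libraries for the 16260 genes tested, with genes past the threshold in blue and the 5 signalling genes in purple whether past it or not. CAMK1G (3.44), SLC32A1 (2.82) and GLRK (2.07) lie above the bulk of genes with like counts, GRM3 (1.48) lies at low counts and SLC6A13 (-2.17) lies below the bulk.

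Levels can be set against each other between genes only per length, and RPKM, the reads of a gene scaled to the length of its model and to the library's counted reads, was used for this. GLRK had the highest level in both groups, 149 ± 27.8 RPKM in albino and 38.8 ± 6.57 RPKM in normal skin (SD, n = 3 each). In albino skin SLC32A1 (32.8 to 43.1 RPKM) and CAMK1G (18.1 to 49.1 RPKM) followed and overlapped each other. SLC6A13 (0.578 to 2.82 RPKM) and GRM3 (0.816 to 0.914 RPKM) were lowest in albino skin and also overlapped.

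The order was different in normal skin. SLC6A13 came after GLRK with 7.73 ± 3.65 RPKM and overlapped SLC32A1 at 5.82 ± 1.33 RPKM (SD, n = 3 each). CAMK1G at 3.39 ± 0.45 RPKM lay below both in every normal fish, and GRM3 at 0.331 ± 0.104 RPKM was lowest (SD, n = 3 each). Thus the vesicular and the plasma membrane transporter had overlapping levels in normal skin, and were far apart in albino skin.

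The transporters can also be compared within each fish, where a ratio of counts does not depend on how libraries are scaled. Such a ratio shows a change of SLC32A1 relative to SLC6A13, not the direction of either gene. SLC32A1 had 26, 47.1 and 96.6 reads per SLC6A13 read in PO_alb1, PO_alb2 and PO_alb3, against 1.79, 1.37 and 1.03 in PO_con1, PO_con2 and PO_con3. The ratio was lowest in PO_alb1 among albino fish, and even there it was far above that of every normal fish. On the log2 scale the mean ratio was 5.62 ± 0.95 in albino and 0.45 ± 0.40 in normal skin (SD, n = 3 each), a difference of 5.17 that stayed between 4.68 and 5.63 when any 1 fish was left out.

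Ratios among the 3 genes that passed as higher were closer between the groups. SLC32A1 had 0.534, 0.626 and 0.488 reads per GLRK read in PO_alb1, PO_alb2 and PO_alb3, against 0.264, 0.293 and 0.451 in PO_con1, PO_con2 and PO_con3. Every albino ratio was above every normal one, by a narrow margin over PO_con3. The mean log2 ratio was -0.87 ± 0.18 in albino and -1.61 ± 0.41 in normal skin (SD, n = 3 each), a difference of 0.74.

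GLRK had 3.12, 2.63 and 7.05 reads per CAMK1G read in PO_alb1, PO_alb2 and PO_alb3, against 8.3, 11.3 and 10.1 in PO_con1, PO_con2 and PO_con3. All albino ratios were below all normal ones, by a narrow margin between PO_alb3 and PO_con1. CAMK1G was thus higher relative to GLRK in albino than in normal fish. SLC32A1 had 1.67, 1.65 and 3.44 reads per CAMK1G read in the same albino fish, against 2.19, 3.32 and 4.55 in the normal fish, and here the groups overlapped. The larger fold change of CAMK1G than of SLC32A1 therefore does not stand beyond the spread between fish.

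**Figure D3:**
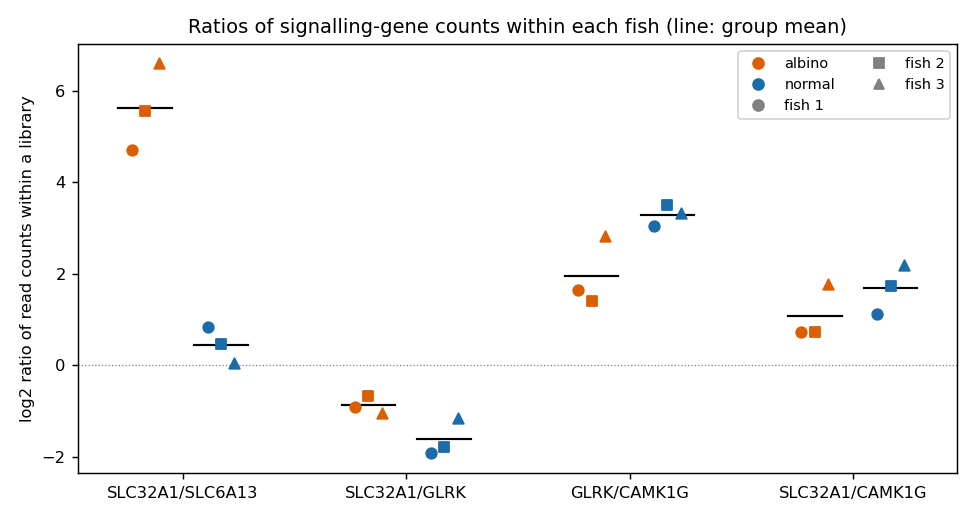
Log2 ratio of read counts between pairs of the signalling genes within each fish, with points for 3 albino and 3 normal fish and lines for group means. The ratio of SLC32A1 to SLC6A13 averages 5.62 in albino and 0.45 in normal fish, and that of SLC32A1 to CAMK1G overlaps between the groups.

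The genes did not share 1 order among fish of a group. With TMM scaling the within-group SD of log2 values was 0.16 for SLC32A1 and 0.72 for SLC6A13, against a median of 0.26 over all genes. Of all genes, 22.4% had a smaller SD than SLC32A1 and 95.9% a smaller one than SLC6A13. These shares are over genes of all count levels and were not matched for read depth. The SD was 0.38 for GLRK, 0.41 for GRM3 and 0.49 for CAMK1G. With libraries scaled by their totals alone it was 0.29 for SLC32A1, 0.25 for GLRK and 0.30 for GRM3. SLC32A1 then no longer had the smallest SD of the signalling genes. Among albino fish SLC32A1 and GLRK were both highest in PO_alb3 and lowest in PO_alb2, but this order changed when libraries were scaled by their totals alone. CAMK1G was highest in PO_alb1 and lowest in PO_alb3 under all 3 scalings, as was SLC6A13. No correlation between genes was tested.

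Among normal fish CAMK1G and SLC6A13 ran in opposite orders under all 3 scalings, CAMK1G being highest in PO_con1 and SLC6A13 highest in PO_con3. The keratin sum was 13760, 10430 and 8355 in PO_alb1, PO_alb2 and PO_alb3 and 23540, 26660 and 40120 in PO_con1, PO_con2 and PO_con3, so SLC6A13 took the same order as the keratin sum in both groups. This order was not particular to keratin. SOX10, a transcription factor gene of the neural crest and pigment cells, took it too, with normalized counts of 89.82, 80.55 and 78.41 in these albino fish and 244.5, 262.5 and 321 in these normal fish. The sum of the 6 melanophore markers did not take it in either group. That sum was 140.7, 70 and 84.95 in these albino fish and 1472, 1119 and 1518 in these normal fish. With TMM scaling the muscle sum took the reverse of the keratin order in both groups. It was 33120, 38910 and 47230 in PO_alb1, PO_alb2 and PO_alb3. In PO_con1, PO_con2 and PO_con3 it was 24600, 21980 and 12110. DES made up most of this sum, with 32220, 37980 and 46310 normalized counts in the albino fish. By RPKM, which uses library totals alone, DES did not keep this order. It had 1287, 1518 and 1398 RPKM in PO_alb1, PO_alb2 and PO_alb3. In PO_con1, PO_con2 and PO_con3 it had 808.6, 852.3 and 579.5 RPKM. With TMM scaling MUSTN1 took the order of the sum in both groups, but by RPKM it was lowest in PO_alb3 among albino fish. TNNT2 did not take that order among albino fish, with normalized counts of 137.7, 138.1 and 120.2 in PO_alb1, PO_alb2 and PO_alb3. The sum of 3 leukocyte markers (NCF1, IL1B and MMP9) was 273 to 559 in albino and 789 to 1289 in normal skin. Other defence genes went the other way, among them the lysozyme gene LYG with a log2 fold change of 1.74. MMP9 made up most of the leukocyte sum. Whether this sum follows the number of leukocytes was not tested in this unsorted skin. The keratin, muscle and leukocyte markers were all in the study's table of changed genes, so the gap between the groups in their sums follows from that choice. Their part in the differences of the signalling genes was not tested. Without PO_con3, whose sums were the most extreme of the normal fish, the log2 fold changes were 2.82 for SLC32A1, -1.95 for SLC6A13, 1.87 for GLRK, 1.33 for GRM3 and 3.23 for CAMK1G.

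**Figure D4:**
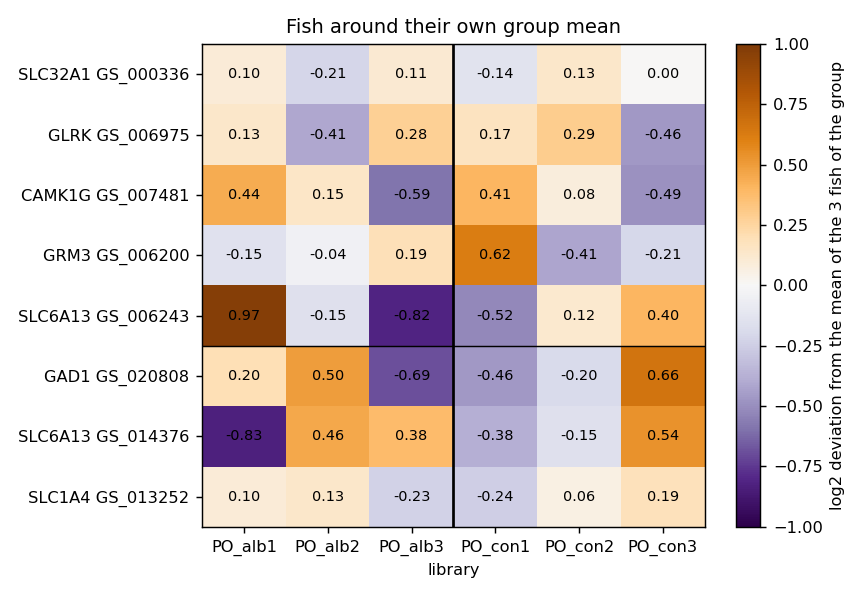
Heat map of the log2 deviation of each fish from the mean of its group (TMM-scaled counts), for the 5 signalling genes in the upper rows and 3 other GABA and glutamate genes in the lower rows, with 3 albino and 3 normal fish in columns. SLC32A1 is palest (within-group SD 0.16) and SLC6A13 GS_006243 most coloured (0.72), and among normal fish PO_con3 is highest for SLC6A13 and lowest for CAMK1G.

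The other GABA and glutamate genes of the study's table of changed genes numbered 5, of which 4 passed the filter on low counts. All 4 passed the threshold as lower in albino skin by edgeR and limma on log2(RPKM + 1) passed 1 of them, against 0.91% and 0.547% of all genes tested. As higher, 0 passed by edgeR, also at an unadjusted p under 0.05, by DESeq2 or by limma, against 0.129% of all genes tested by edgeR. Since the list was drawn from genes that changed in these same libraries, this direction is not independent evidence. The summed normalized counts were 52.3 to 73.8 in albino and 218 to 395 in normal skin, and the median log2 fold change was -3.66.

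GAD1 (GS_020808) encodes glutamate decarboxylase, which makes GABA from glutamate. It had 9, 12 and 3 reads in PO_alb1, PO_alb2 and PO_alb3, against 50, 65 and 146 reads in PO_con1, PO_con2 and PO_con3, with a log2 fold change of -3.21 (SE 0.45). Fish of the groups did not overlap, and PO_con3 was well above the other normal fish. The call was lost without PO_alb1, PO_alb2, PO_alb3 or PO_con2, the log2 fold change staying between -3.54 and -2.79 over all omissions of 1 fish.

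The other SLC6A13 gene, GS_014376, had 0, 3 and 2 reads in PO_alb1, PO_alb2 and PO_alb3, against 22, 28 and 57 reads in PO_con1, PO_con2 and PO_con3, with a log2 fold change of -4.10 (SE 0.64). It was thus nearly undetected in albino skin and modest in normal skin, and its call was lost on omission of any fish but PO_con1 (log2 fold change -4.69 to -3.51). GS_002818, named after the GABA transporter SLC6A11 (GAT3) in one of the study's tables and after a retroelement polyprotein in another, had 2, 0 and 0 reads in PO_alb1, PO_alb2 and PO_alb3, against 29, 66 and 102 in PO_con1, PO_con2 and PO_con3. The normal-to-albino ratio was 86.8 (95% Clopper-Pearson interval 23.7 to 722), an interval that covers counting error only. Its call was lost without PO_alb3 or PO_con2, with log2 fold changes between -8.91 and -5.59 over all omissions.

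SLC1A4 (GS_013252), a sodium-dependent transporter of serine, alanine and other neutral amino acids in the glutamate transporter family, had normalized counts of 57.9, 59.5 and 45.7 in PO_alb1, PO_alb2 and PO_alb3, against 104, 129 and 141 in PO_con1, PO_con2 and PO_con3. The groups were apart by less than for the other genes, the log2 fold change being -1.19 (SE 0.20), and the call was lost on omission of any fish but PO_con1 (log2 fold change -1.32 to -1.09). DLGAP2 (GS_001665), a scaffold protein of excitatory synapses, had 0 reads in every albino fish, against 6, 10 and 10 reads in PO_con1, PO_con2 and PO_con3. It did not pass the filter on low counts and was at least 7.63-fold lower in albino skin, taking 3 reads over the group as the limit that a count of 0 allows.

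Among normal fish GAD1, both SLC6A13 genes, SLC6A11 and SLC1A4 were all highest in PO_con3 and lowest in PO_con1 under the 3 scalings. This was the order of the keratin sum, of the leukocyte sum and of SOX10, and the reverse of that of CAMK1G. The melanophore sum did not take it, and the share of all genes with this order was not counted. Albino fish showed no shared order. With TMM scaling GAD1 and SLC1A4 were highest in PO_alb2 and lowest in PO_alb3, and GS_014376 was lowest in PO_alb1. GS_006243 followed the keratin sum there, and SLC6A11 had reads in PO_alb1 only. The leukocyte sum ran the reverse way, with 273.4, 407.5 and 559.4 in PO_alb1, PO_alb2 and PO_alb3. Whether the reads of these genes and those of SLC32A1 came from the same cells was not tested.

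**Figure D5:**
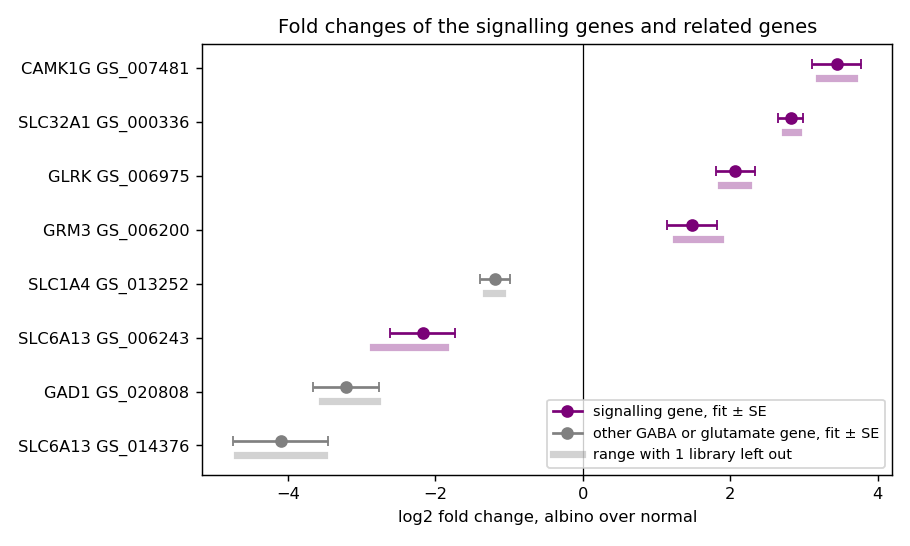
Log2 fold change (albino over normal skin) of the 5 signalling genes and of 3 other GABA and glutamate genes, with points for the fit, error bars for its SE and shaded bars for the range when each of the 6 libraries is left out. CAMK1G (3.44), SLC32A1 (2.82), GLRK (2.07) and GRM3 (1.48) lie right of 0, and SLC6A13 (-2.17) lies left of it with SLC1A4 (-1.19), GAD1 (-3.21) and the other SLC6A13 gene (-4.10).

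The genes nearest in pattern were found over the 6 libraries by the root mean square distance between log2 profiles, each centred on its own mean. They were sought among the 211 genes named in the study's tables of changed genes, with the rank among all 16259 other genes tested. Every candidate had thus been called changed between these groups by the study, and the near genes were not drawn from genes in general. Since the between-group difference dominates these profiles, near genes are chiefly those that changed in the same direction, not always by a like amount. For SLC32A1 they were NKX1-1 (0.40, rank 1), a homeobox gene, CIDEC (0.43, rank 2), a lipid droplet protein gene, and GLRK (0.45, rank 3). CAMK1G lay nearest to CIDEC (0.19, rank 1), NKX1-1 (0.51, rank 2) and SLC32A1 (0.54, rank 3). The fitted log2 fold changes of NKX1-1 (7.189) and CIDEC (4.275) were larger than those of SLC32A1 (2.82) and CAMK1G (3.44). NKX1-1 had no read in normal skin, and such low profiles are damped by the prior count of 2.

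SLC6A13 had its nearest named genes in IFI30 (0.10, rank 1), a lysosomal thiol reductase gene, MC1R (0.12, rank 2), the melanocortin receptor of pigment cells, and ADRB1 (0.25, rank 4), a beta-adrenergic receptor gene. GLRK had among them MUSTN1 (0.40, rank 2) and LYG (0.41, rank 5), genes for a musculoskeletal nuclear protein and a goose-type lysozyme. GRM3 had them in PLIN2 (GS_012001; 0.24, rank 4), MUSTN1 (0.25, rank 6) and APCS (0.27, rank 8). The 3 nearest named genes of each signalling gene were the same 3 under the other scaling tried, that of DESeq2's size factors. That scaling is close to TMM here, the median log2 fold change of all genes being 0.012 against 0.008. The agreement was thus nearly bound to hold, and scaling by library totals alone was not tried for it.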

How the data were processed

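RNA was extracted from ocular-side skin of 3 albino and 3 normal fish, with 1 library per fish. Reads were aligned by the authors with TopHat2 2.0.9 and Bowtie2 2.0.6, with Cufflinks 2.1.1 among the tools named in the submitters' processing notes. The deposited counts are raw reads per gene, which the authors made with HTSeq, and the deposited RPKM values are those counts scaled to gene length and to each library's summed counts, as the values themselves show. Of 20121 known genes with counts, 20120 had a length divisible by 3, so gene length means coding length. The strand setting and genome build were not given in the sources used here, so reads of a gene and of an antisense partner cannot be told apart. None of the 5 gene IDs matched the RefSeq table at hand, so no coordinates or sequences are given.

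Counts were filtered (filterByExpr), TMM-scaled and tested with edgeR 4.0.16 in R 4.3.3 (glmQLFit and glmQLFTest, albino over normal, Benjamini-Hochberg adjusted p of 0.05 over all 16260 genes). The SE is the absolute log2 fold change over the square root of F. Biological variation was 21.8% (common dispersion 0.0475). Alternatives used DESeq2 1.42.0, limma 3.58.1 on log2(RPKM + 1) and log2(RPKM + 0.1), other scalings and filters, a replicate block and the omission of each fish. The fitting was tested on simulated data. Intervals and floors cover counting error only. The genes named were the 5 signalling genes, the whole list of other GABA and glutamate genes, the extremes of a neuron-associated list and the 3 named genes nearest to each signalling gene, of which 1 is not reported here. The genes and lists were chosen with earlier results of these data known.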

Additional observations from a re-analysis of the deposited data

How the results depend on the processing

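The direction of the 5 signalling genes held in 70 of 70 alternative values, and that of the 4 other GABA and glutamate genes in 56 of 56. Fish of the groups did not overlap for any of these genes, which were chosen for their change. A reversed direction was therefore hardly possible, and these counts are no support for it. Scaling by library totals alone moved the median log2 fold change of all genes to -0.13, against 0.01 with TMM and with DESeq2's size factors, and 99 genes were then called lower and 7 higher, in place of 148 and 21. DESeq2 called 274 genes lower and 90 higher, and 1 signalling gene lower, with log2 fold changes of -2.18 for SLC6A13 and 1.49 for GRM3, which both passed. Limma called 89 genes lower and 7 higher on log2(RPKM + 1), and 101 lower and 6 higher on log2(RPKM + 0.1). GRM3 had its smallest value, 0.48, on log2(RPKM + 1), a scale that understates the change of low genes.

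With replicate number as a block 53 genes were called lower and 4 higher, and GLRK (log2 fold change 2.08) no longer passed. Under this block GAD1, the other SLC6A13 gene, SLC6A11 and SLC1A4 did not pass either (log2 fold changes -3.13, -4.08, -6.06 and -1.19, adjusted p = 0.11, 0.10, 0.068 and 0.23, edgeR). The labels do not say that the numbers pair the fish. The deviations of same-numbered fish had correlations of -0.169, 0.181 and -0.442, against -0.297 to 0.428 for differently numbered fish. With 3 fish in each group these values cannot decide whether the fish were paired. Omitting each fish in turn gave 69 to 131 genes called lower and 2 to 13 called higher, the fewest of both without PO_con2. It gave 0 to 1 signalling genes called lower and 2 to 3 called higher, with log2 fold changes of -2.84 (without PO_alb1, then called) to -1.87 for SLC6A13 and of 1.87 to 2.25 for GLRK, which was not called without PO_con2. The causes of these changes were not tested. Depth limits the values of the genes with few reads, among them GRM3, GAD1, the other SLC6A13 gene, SLC6A11 and DLGAP2.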

Other observations

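A list of 13 neuron-associated genes from the study's table of changed genes, also drawn from these libraries, had 12 members that passed the filter on low counts. Of these, 7 passed the threshold as lower in albino skin and 0 as higher (edgeR), against 0.91% and 0.129% of all genes tested, and at an unadjusted p under 0.05 the counts were 11 lower and 1 higher, against 5.16% and 2.7% of all genes tested. DESeq2 also called 11 lower and 1 higher, against 1.69% and 0.554%, and limma on log2(RPKM + 1) called 0 in either direction. The median log2 fold change was -1.71. It was lowest for NCAM2 (GS_000153), a neural cell adhesion molecule, at -2.58 (SE 0.39), and highest for DSCAM (GS_018185), another adhesion molecule of neurons, at 1.04 (SE 0.20), which did not pass. The summed normalized counts were 462 to 508 in albino and 777 to 1086 in normal skin. SOX10, a transcription factor of the neural crest, glia and pigment cells, had 78.4 to 89.8 normalized counts in albino and 245 to 321 in normal skin. Its level cannot be assigned to glia or to pigment cells in unsorted skin. The study's table of changed genes held mostly genes lower in albino skin, so the direction of the neuron-associated list and of SOX10 is not independent evidence. The cells that carried the reads of SLC32A1, GLRK and CAMK1G were not identified here.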
